A study of Mus musculus with 6 samples.

Results

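The MAX and MLX partner network is the set of transcription factors that pair with MAX or with MLX, the common partners of a family of E-box binding proteins. Its members were chosen by name, with Myc, Mycn and Mycl left out: Max itself, the MXD genes Mxd1, Mxi1, Mxd3 and Mxd4, then Mnt and Mga, and on the other arm Mlx, Mlxip and Mlxipl. All 10 genes were measured, by 24 of the 45037 probe sets that are not Affymetrix controls, and each of the 24 carries a single gene symbol in the platform annotation. They are 10 of 18193 named genes. Expression was profiled on Affymetrix arrays in bone marrow cells sorted as lineage negative and positive for Sca1, CD150 and CD48, which the study calls committed progenitors. The double knockout (dKO) mice carried MxCre together with the floxed alleles c-myc f2 and N-myc f2, so that the interferon-responsive Mx promoter drives Cre in many cell types once interferon is induced. The control mice carried c-myc f2 and N-myc f2 without MxCre, so loss of the genes and presence of the transgene cannot be told apart. Both groups were on a mixed background, were 8 weeks old and received pI-pC, an interferon inducer, on 2 days, and cells were taken 3 days after the last dose. There were 3 arrays per group. Each dKO array holds a pool of 3 mice and each control array a pool of 2.

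MYC proteins bind the E-box, a short palindromic DNA motif, only as dimers with MAX. MXD proteins, MNT and MGA compete for the same partner. The MXD proteins and MNT recruit SIN3 and histone deacetylases to repress transcription, and MGA acts within a Polycomb complex. MLX is the MAX-like partner of MondoA (encoded by Mlxip) and ChREBP (encoded by Mlxipl), which sense glucose metabolites, and MLX also binds some MXD proteins and MNT. In blood formation, MXD proteins are known for rising as cells stop dividing and mature.

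All expression values here are deposited RMA values on a log2 scale, so a difference of 1 is a 2-fold change, and array medians lay between 5.91 and 5.94. Myc was at 7.77 ± 0.29 in dKO and 10.74 ± 0.24 in control pools (SD, n = 3 each), and the Mycn probe set 1417155_at at 4.05 ± 0.68 in dKO and 9.33 ± 0.35 in control. The other Mycn probe sets had log2 fold changes of -0.83 and 0.34 and did not pass. The first of these, 1425922_a_at, is the brightest for Mycn, with 6.95 to 7.97 in dKO and 7.94 to 8.41 in control. Where any of them lies relative to the deleted exons was not given in the sources used here. The tissue label of control 1 names stem cells, although its gate and title match those of the other arrays. The gate genes Slamf1 (CD150) and Cd48 were bright in all arrays, with 8.40 to 9.58 and 11.27 to 11.69 in dKO, against 7.74 to 8.74 and 11.09 to 11.32 in control. Ly6a (Sca1) was not analysed here. Other cells' markers moved with the groups. Over all genes by brightest probe set, 2.45% were called higher and 2.03% lower. Summed as linear signal over 10 genes, T and NK cell markers lay at 10174 to 12015 in dKO and 1691 to 2221 in control. Of the 10, 7 were called higher in dKO. A linear sum leans on its brightest gene, in dKO here Gzmb (12.46 to 12.66, against 6.28 to 7.49 in control). Cd3e and Cd3g had positive values that did not pass, and Cd7 had a negative one (-0.48). Megakaryocyte markers lay at 9744 to 11647 in dKO and 3005 to 3029 in control (5 of 10 higher). Mast cell markers lay at 5018 to 7438 in dKO and 1672 to 2372 in control (5 of 8 higher). The brightest of these was Gata2 (11.57 to 11.87 in dKO, 9.92 to 10.79 in control), and the others called were Cma1, Mcpt8, Fcer1a and Cpa3. Granulocyte and monocyte markers lay at 1654 to 4249 in dKO and 8380 to 13626 in control (4 of 10 lower). Those called were Ly86, Irf8, Csf1r and Lyz2. Mpo, Elane, Prtn3, S100a8 and Csf3r had negative values and Itgam a positive one (0.24), without passing. B cell and lymphoid progenitor markers lay at 1023 to 1511 in dKO and 3210 to 4631 in control (3 of 9 lower). Called here were Dntt (-4.99), Flt3 (-2.73) and Rag1 (-2.28), and Dntt was the brightest in control (10.66 to 11.31). Cd79a (0.40), Cd79b (0.26) and Pax5 (0.10) had positive values, and Ebf1, Vpreb1 and Il7r negative ones, none of which passed. For erythroid markers the sums overlapped (3553 to 5328 in dKO, 4682 to 5131 in control), but single genes differed in direction. The transferrin receptor gene Tfrc fell by 1.35 (adjusted p = 0.00458), the 1 of 8 that was called. In 5 others, Alas2 (1.29), Slc4a1 (1.16), Epor (0.77), Gata1 (0.74) and Klf1 (0.58), the groups were separate, with dKO higher, but the test was not passed. Over all genes by brightest probe set, 2310 of 18193 had separate groups with dKO higher. Cycling cell markers overlapped (18970 to 21339 in dKO, 17889 to 19530 in control). RMA values have no zero, so none of these markers is at 0. The part these markers have in the results below was not tested. Xist stood apart in dKO 1 (10.50) and control 1 (9.10) from the other pools (5.23 to 5.86 in dKO, 5.03 to 5.80 in control), and dKO 3 had the lowest array weight (0.377, against 0.793 to 1.54 for the others).

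Across the network, Mxi1 and Mlxip were called lower in dKO progenitors and no member was called higher. Of the 24 member probe sets, 3 were lower and 0 higher (limma, Benjamini-Hochberg adjusted p under 0.05 over all probe sets), namely both probe sets of Mxi1 and the single one of Mlxip. Over all probe sets, 3.60% were called in either direction and 1.78% were called lower. Single arrays decided part of this count, which was 1 without control 1, control 2 or control 3, and 1 without dKO 1 and control 1 together. In all, 17 of the 24 had a negative and 7 a positive log2 fold change. The median log2 fold change of the 24 was -0.20, with values from -1.51 to 0.48, beside 0.030 over all probe sets. The dKO and control arrays did not overlap in 11 of the 24 probe sets, 8 lower and 3 higher in dKO, beside 21.3% of all probe sets in either direction, 10.6% lower and 10.7% higher. Probe sets of 1 gene measure the same gene and are not independent. In these sorted pools, fewer cells that express a gene and less RNA per cell cannot be told apart.

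**Figure D1:**
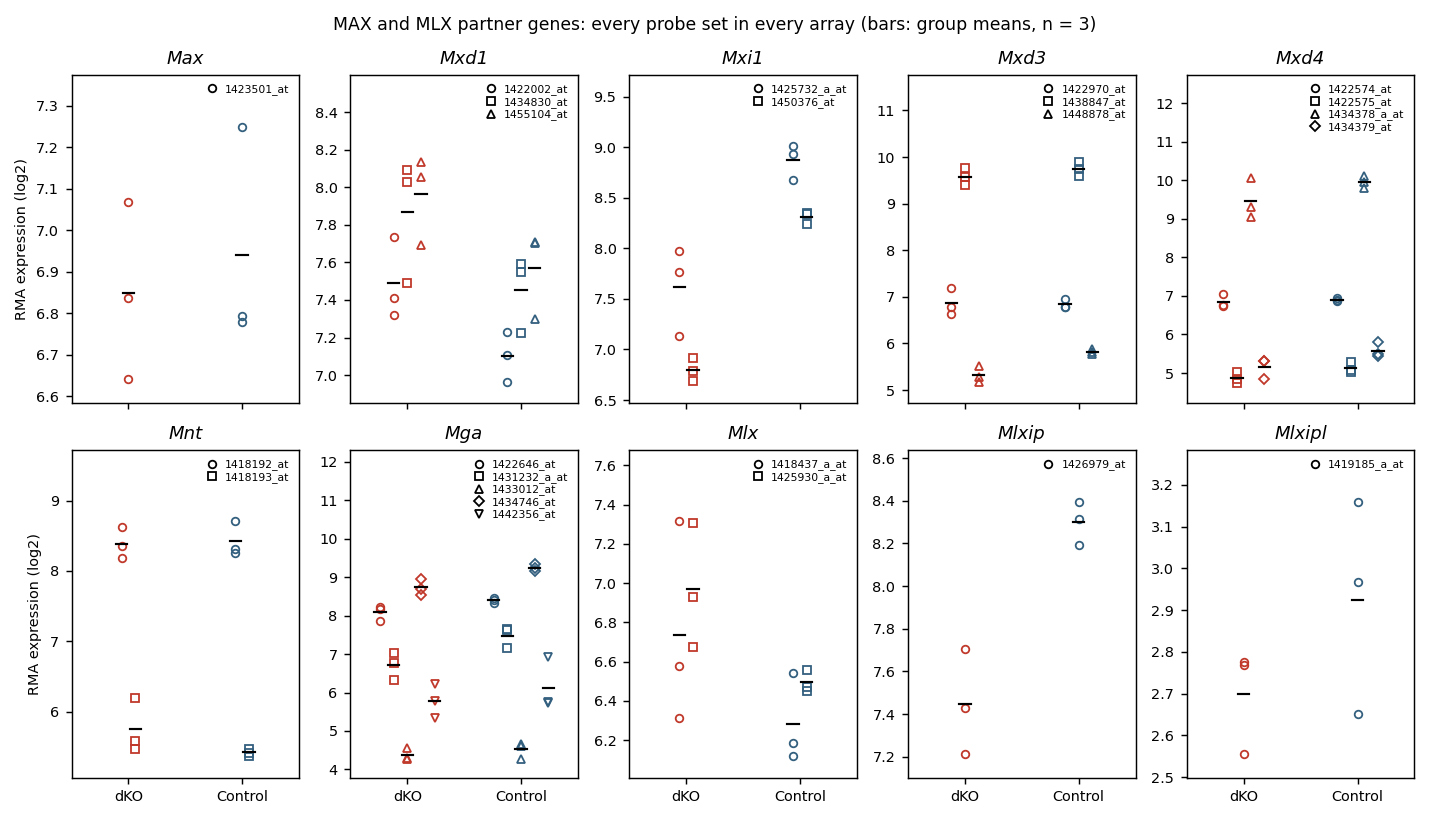
RMA expression (log2) of every probe set of the 10 genes in each array, dKO left and control right. Each point is 1 array, black bars are group means (n = 3) and marker shapes tell probe sets apart. Vertical scales differ between panels. Both Mxi1 probe sets and the Mlxip probe set lie lower in all dKO arrays than in any control array.

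Since MYC proteins and the members bind E-boxes, the sequence before the RefSeq starts of the members (assembly GRCm38.p6) was read for the canonical motif CACGTG. The table gives 13 windows for the 10 genes, each of 250 bases before an annotated start, written 5′ to 3′ on the gene's strand. The motif, identical on both strands, was found in none of the 3 Mxi1 windows and not in the Mlxip window. Shown are the windows of Mxi1 before its starts at chr19:53310256-53310505 and chr19:53329163-53329412 (plus strand) and of Mlxip at chr5:123394548-123394797 (plus strand), as these are the genes that fell. Capitals would mark the motif, and there are none.
Mxi1, first start: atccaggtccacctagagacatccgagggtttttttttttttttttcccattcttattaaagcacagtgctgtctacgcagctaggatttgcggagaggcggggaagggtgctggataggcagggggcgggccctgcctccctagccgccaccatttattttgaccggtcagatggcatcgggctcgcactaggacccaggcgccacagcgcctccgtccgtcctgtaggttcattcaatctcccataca
Mxi1, second start: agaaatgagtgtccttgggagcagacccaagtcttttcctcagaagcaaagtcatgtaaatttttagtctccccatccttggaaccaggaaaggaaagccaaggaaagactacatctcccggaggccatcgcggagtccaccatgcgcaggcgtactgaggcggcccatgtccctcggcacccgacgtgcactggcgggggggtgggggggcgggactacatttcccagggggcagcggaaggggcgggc
Mlxip: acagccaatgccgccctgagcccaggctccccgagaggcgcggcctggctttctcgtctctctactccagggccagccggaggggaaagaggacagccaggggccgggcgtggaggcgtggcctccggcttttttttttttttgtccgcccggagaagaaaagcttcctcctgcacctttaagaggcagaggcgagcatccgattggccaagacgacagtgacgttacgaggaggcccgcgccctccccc

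The motif was present once before 1 start each of Mxd4, Mnt, Mlx and Mlxipl, 4 of 10 genes, beside 6.86% of 27025 genes in the table. Counted by window it was in 4 of 13, beside 6.02% of 32851 windows. The 30 bases around each site are shown for comparison, with the motif in capitals.
Mxd4: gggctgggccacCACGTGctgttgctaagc
Mnt: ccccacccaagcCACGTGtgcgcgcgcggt
Mlx: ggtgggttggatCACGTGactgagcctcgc
Mlxipl: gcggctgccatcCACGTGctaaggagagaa
The motif begins 219 bases before the start in Mxd4 (chr5:34187711-34187960, minus strand), 123 in Mnt (chr11:74830674-74830923, plus strand), 40 in Mlx (chr11:101087040-101087289, plus strand) and 98 in Mlxipl (chr5:135089640-135089889, plus strand). The variant CACGCG, searched on both strands, was in 1 of the 10 genes (Mga), beside 8.65% of genes. The wider motif CANNTG, which includes CACGTG, was in 5 of the 10, beside 69.3% of genes. The member windows held 53.2% to 78.4% G and C, against a median of 52.4% over all windows. A match describes letters in a window, and its absence says only that these letters are not there. None of the 4 genes with the canonical motif passed the test. Over all genes by brightest probe set, 2.45% were called higher and 2.03% lower, so with 4 genes this says nothing about the motif. Mlxipl was also dim (2.55 to 3.16 over the arrays).

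Max, the shared partner of MYC, MXD, MNT and MGA proteins, was measured by 1 probe set at 6.84, 6.64 and 7.07 in dKO 1 to 3, against 6.78, 7.25 and 6.79 in control 1 to 3. The groups overlapped. The log2 fold change was -0.090 ± 0.21 (SE) with a 95% interval from -0.56 to 0.38, and it did not pass (limma, adjusted p = 0.897). Its sign turned without dKO 2 (0.013) or control 2 (0.064).

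Mxi1 encodes an MXD protein that represses through SIN3, and it had the lowest fold changes of the network. Probe set 1450376_at stood at 6.79, 6.69 and 6.92 in dKO 1 to 3, against 8.35, 8.34 and 8.24 in control 1 to 3. The gap between the groups was far wider than the spread within either. Mean levels were 6.80 ± 0.11 in dKO and 8.31 ± 0.060 in control (SD, n = 3 each), so it fell by 1.51 ± 0.16 on the log2 scale (SE), 2.85-fold (limma, adjusted p = 0.00265). This call held in all 19 alternatives that include the probe set, with log2 fold changes from -1.57 to -1.45. Probe set 1425732_a_at stood at 7.97, 7.76 and 7.13 in dKO 1 to 3, against 9.02, 8.68 and 8.94 in control 1 to 3. Its groups were separate too, with dKO 3 the lowest. It fell by 1.26 ± 0.24, 2.39-fold (adjusted p = 0.0284), and lost the call without dKO 2 (adjusted p = 0.0652), control 1 (0.0922), control 2 (0.0762) or control 3 (0.107), and without the Xist-positive pools dKO 1 and control 1 (0.0906). The probe sets differed by 0.25 in log2 fold change.

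The other MXD genes did not pass. Mxd1, the founding MXD gene and one induced in maturing myeloid cells, had 3 probe sets with log2 fold changes between 0.39 and 0.41. Its probe set 1422002_at lay at 7.41, 7.32 and 7.74 in dKO 1 to 3, against 6.96, 7.23 and 7.11 in control 1 to 3. Every dKO array was above every control array there, whereas the groups overlapped in the others. The intervals of the 3 probe sets reached from -0.083 to 0.91, and the smallest adjusted p was 0.363. Mxd3, which differs from the other MXD genes in being expressed in dividing cells in S phase, gave log2 fold changes of 0.025, -0.18 and -0.50 on its 3 probe sets. The lowest, 1448878_at, stood at 5.28, 5.17 and 5.51 in dKO 1 to 3, against 5.87, 5.78 and 5.82 in control 1 to 3. These groups did not overlap, but adjusted p was 0.184, and the brightest Mxd3 probe set, 1438847_at, overlapped (9.39 to 9.76 in dKO, 9.60 to 9.90 in control). Of 11 cycling cell markers 0 were called in either direction (limma, and 0 at an unadjusted p under 0.05). Over all genes, 2.45% were called higher and 2.03% lower, and 17.3% had an unadjusted p under 0.05. The groups were separate in 2 of the 11, Rrm2 (0.37) and Pcna (0.18), with dKO higher, beside 21.3% of all probe sets. Mxd4 was negative on all 4 probe sets, from -0.49 to -0.043, with intervals that included 0 on each. Its brightest, 1434378_a_at, stood at 9.30, 9.04 and 10.05 in dKO 1 to 3, against 9.79, 10.11 and 9.95 in control 1 to 3. There dKO 3 lay among the control values (limma, adjusted p = 0.435). The groups were separate only on the dimmer 1434379_at (4.85 to 5.32 in dKO, 5.45 to 5.80 in control, adjusted p = 0.359).

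**Figure D2:**
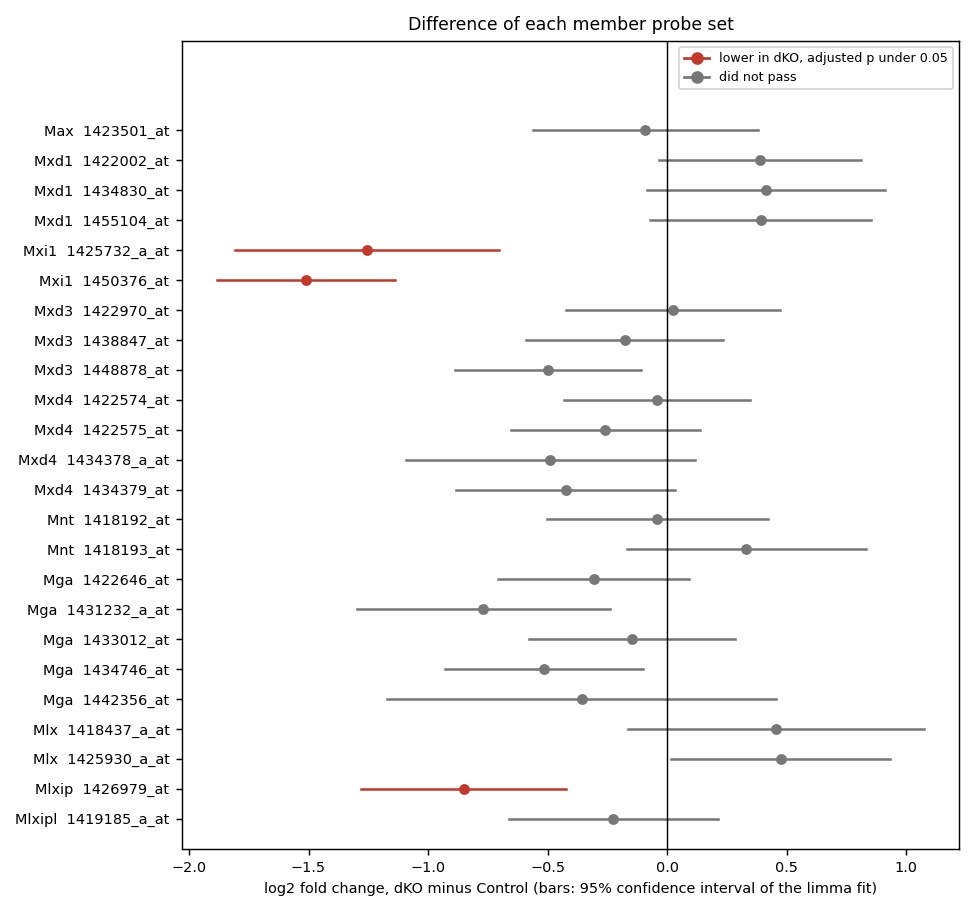
Log2 fold change (dKO minus control) of each member probe set from the limma fit, with bars for the 95% confidence interval. The 3 probe sets that passed, those of Mxi1 at -1.26 and -1.51 and of Mlxip at -0.85, lie left of 0, and Mxd1 and Mlx lie right of 0 without passing.

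Mnt, a widely expressed repressor that opposes MYC, gave opposite signs on its 2 probe sets. The brighter, 1418192_at, lay at 8.18, 8.35 and 8.62 in dKO 1 to 3, against 8.26, 8.71 and 8.31 in control 1 to 3, with overlapping groups and a log2 fold change of -0.042 (interval -0.50 to 0.42). The dimmer, 1418193_at, lay at 5.58, 5.47 and 6.20 in dKO 1 to 3, against 5.37, 5.42 and 5.47 in control 1 to 3, a log2 fold change of 0.33 ± 0.22, with dKO 3 apart from the other dKO arrays and dKO 2 only just above control 3. Neither passed (adjusted p = 0.956 and 0.542).

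Mga, a large factor that binds both E-boxes and T-box sites, was negative on all 5 probe sets, from -0.77 to -0.15, and none passed. Probe set 1431232_a_at stood at 6.78, 7.02 and 6.33 in dKO 1 to 3, against 7.62, 7.17 and 7.65 in control 1 to 3, a log2 fold change of -0.77 ± 0.23 (limma, adjusted p = 0.132, interval -1.30 to -0.24). The brightest, 1434746_at, stood at 8.70, 8.96 and 8.53 in dKO 1 to 3, against 9.15, 9.35 and 9.23 in control 1 to 3, a log2 fold change of -0.51 ± 0.18 (adjusted p = 0.201). In these and in 1422646_at (7.87 to 8.23 in dKO, 8.33 to 8.46 in control) all dKO arrays were lower than all control arrays, and in the remaining probe sets the groups overlapped.

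On the MLX arm, Mlxip fell while Mlx had positive values that did not pass. Mlxip encodes MondoA, which moves to the nucleus when glucose phosphates build up. Its probe set 1426979_at stood at 7.43, 7.70 and 7.21 in dKO 1 to 3, against 8.31, 8.39 and 8.19 in control 1 to 3, without overlap. Mean levels were 7.45 ± 0.25 in dKO and 8.30 ± 0.10 in control (SD, n = 3 each), and it fell by 0.85 ± 0.19 (SE), 1.80-fold (limma, adjusted p = 0.0462). That call lay close to the threshold. It was lost without dKO 1 (adjusted p = 0.130), dKO 3 (0.0790), control 1 (0.135), control 2 (0.170) or control 3 (0.126), and without the Xist-positive pools dKO 1 and control 1 (0.277), while the log2 fold change stayed between -0.98 and -0.73.

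Mlx encodes the obligate partner of both sensors. Its probe set 1425930_a_at stood at 6.67, 6.93 and 7.31 in dKO 1 to 3, against 6.47, 6.56 and 6.45 in control 1 to 3, with every dKO array above the controls. Its log2 fold change was 0.48 ± 0.20 (interval 0.018 to 0.93, limma, adjusted p = 0.292). The other, 1418437_a_at, had a log2 fold change of 0.45 ± 0.27 (adjusted p = 0.488), with dKO values from 6.31 to 7.32 overlapping control values from 6.12 to 6.54. Mlxipl encodes ChREBP, the sensor best known in liver and fat. It lay at 2.55 to 2.77 in dKO and 2.65 to 3.16 in control, below the lower quartile of every array (4.23 to 4.47), where RMA compresses differences, and its log2 fold change of -0.23 ± 0.19 did not pass (adjusted p = 0.661).

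**Figure D3:**
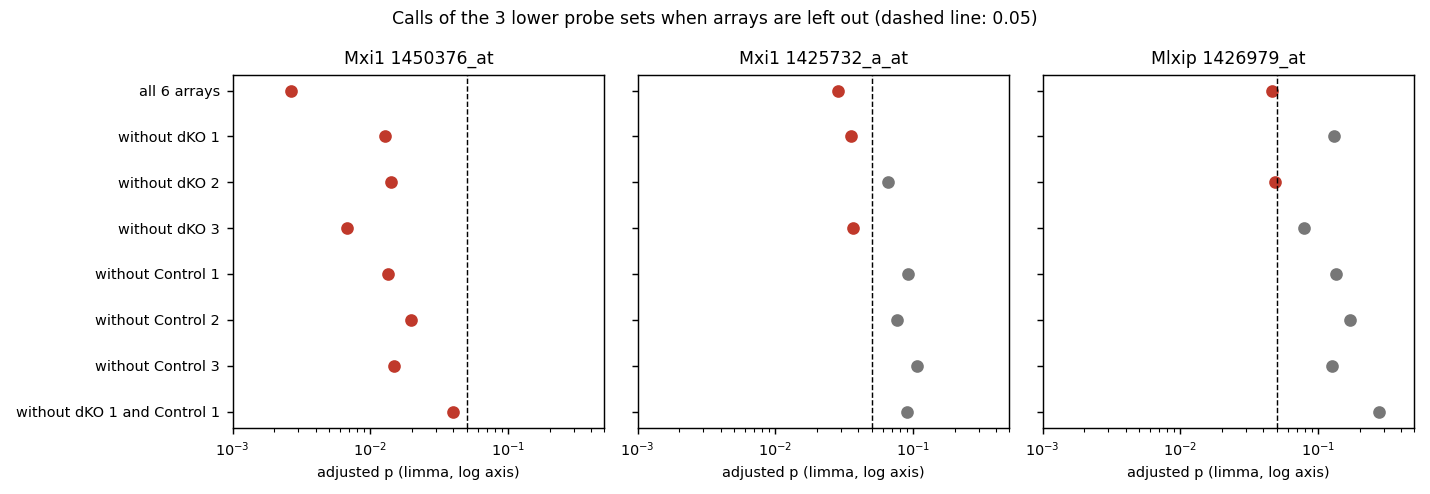
Adjusted p of the limma test (log axis) for the 3 lower probe sets with all 6 arrays, without each array and without dKO 1 and control 1 together. The dashed line marks 0.05. Mxi1 1450376_at stays left of it throughout (at most 0.0397 here), whereas the other Mxi1 probe set and Mlxip cross it.

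Whether members moved differently within the same arrays was compared for 5 pairs chosen after their values were seen, each gene being averaged over its probe sets. The difference Mxi1 minus Mxd1 was -0.50, -0.57 and -0.62 in dKO 1 to 3, against 1.38, 1.14 and 1.13 in control 1 to 3. The difference shifted by -1.78 between the groups. The corresponding shifts were -1.17 for Mxi1 minus Mxd3, -1.08 for Mxi1 minus Mxd4, -1.53 for Mxi1 minus Mnt and -1.32 for Mlxip minus Mlx. In each pair all dKO arrays lay lower than all control arrays (exact permutation test, two-sided, p = 0.1 for each and adjusted p = 0.1 over the 5, the smallest that 3 against 3 arrays allow). The design could therefore not reach 0.05 in this test. Mxi1 and Mlxip had separate groups on their own, so the separate differences largely restate their falls and add no further evidence.

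The genes whose brightest probe set followed each called probe set most closely over the 6 arrays were taken by the smallest root mean square difference of mean-centred log2 values. For Mxi1 1450376_at these were Zfas1, a host of small nucleolar RNAs (0.072), Gnl3, a nucleolar GTPase (0.073), and Havcr1, a phosphatidylserine receptor (0.099). For Mxi1 1425732_a_at they were Qtrt2, part of a tRNA-modifying enzyme (0.099), A930006K02Rik (0.11) and Nr1d2, a nuclear receptor of the circadian clock (0.13). For Mlxip they were Mrpl23, a mitochondrial ribosomal protein (0.049), Ptpmt1, a mitochondrial phosphatase (0.060), and Stk38, a kinase (0.073). The log2 fold changes of these genes ran from -1.63 for Zfas1 to -0.72 for Stk38, and Ptpmt1 and Stk38 did not pass (limma, adjusted p = 0.0534 and 0.0845). Because the genes were picked by likeness over these same arrays, fold changes close to those of the members follow from the choice.

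Among 18 genes described as targets of MondoA or ChREBP, 4 rose and 1 fell in dKO. Over all genes by their brightest probe set, the shares were 2.45% and 2.03%. The list was chosen with earlier results of these data known, so these shares describe it and test nothing. The median log2 fold change of the list was 0.10, against 0.051 over all genes. The count was 2 without control 2, 3 without control 3 or dKO 2, and 1 without dKO 1 and control 1 together. Bhlhe40, a circadian and immune repressor, stood at 8.92, 9.31 and 8.42 in dKO 1 to 3, against 6.54, 6.79 and 5.99 in control 1 to 3, and rose by 2.44 ± 0.28 (limma, adjusted p = 0.00345). Me1, the cytosolic malic enzyme that supplies NADPH, rose by 2.50 ± 0.40 (adjusted p = 0.0126) on its brightest probe set and by 1.75 ± 0.36 on the other (adjusted p = 0.0371), with dKO 3 the lowest dKO array on both. Scd1, a fatty acid desaturase, rose by 1.18 ± 0.18 (adjusted p = 0.0104) from a dim probe set, while its other probe set, with 0.44, did not pass. Pklr, the liver and red cell pyruvate kinase, was at 10.13, 9.45 and 9.35 in dKO 1 to 3, against 7.91, 7.61 and 8.85 in control 1 to 3, and rose by 1.52 ± 0.34 (adjusted p = 0.0495) there and by 1.59 ± 0.27 on another probe set (adjusted p = 0.0177). Khk, the first enzyme of fructose breakdown, was at 7.57, 7.30 and 7.66 in dKO 1 to 3, against 8.56, 8.86 and 8.93 in control 1 to 3, and fell by 1.27 ± 0.19 (adjusted p = 0.00960).

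Txnip and Arrdc4, arrestin-like proteins that restrain glucose uptake and are the textbook MondoA targets, did not pass. Txnip stood at 10.66, 10.58 and 10.16 in dKO 1 to 3, against 9.930, 9.999 and 9.944 in control 1 to 3, on its brightest probe set, a log2 fold change of 0.51 ± 0.19 (limma, adjusted p = 0.221), and had 0.34 on the other. Arrdc4 stood at 8.55, 8.10 and 7.91 in dKO 1 to 3, against 7.39, 7.72 and 7.55 in control 1 to 3, a log2 fold change of 0.63 ± 0.21 (adjusted p = 0.177), and had 1.08 ± 0.33 on the other (adjusted p = 0.131). All dKO arrays were above all control arrays on the brightest probe set of both genes. The other genes of the list gave values from -0.69 (Acacb, which makes malonyl-CoA) to 0.57 (Rgs16) by their brightest probe set and did not pass on any probe set.

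**Figure D4:**
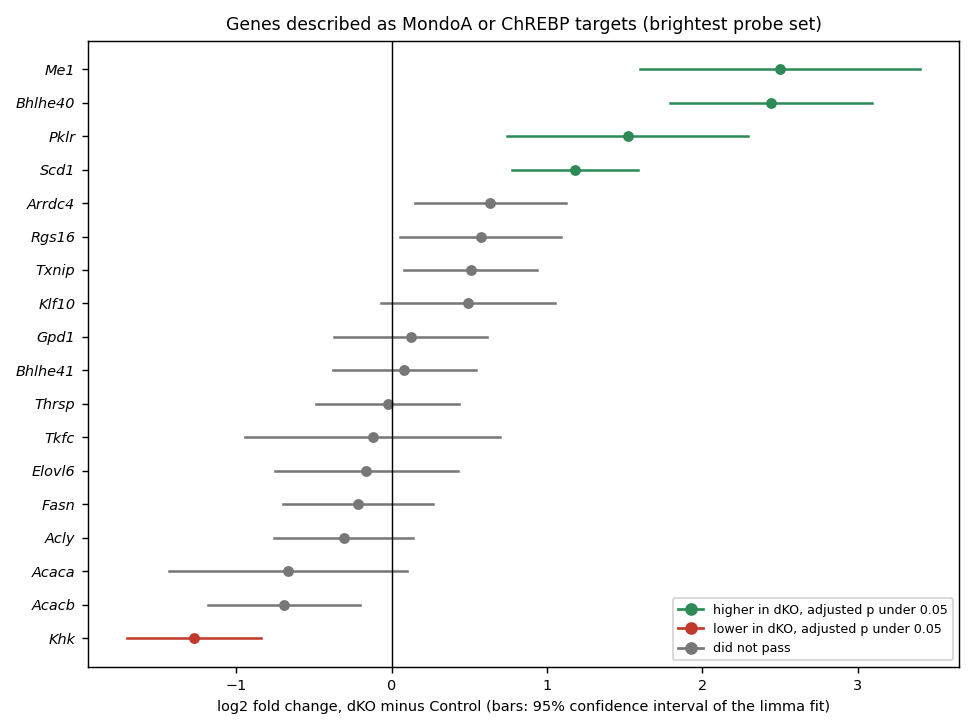
Log2 fold change (dKO minus control) of 18 genes described as MondoA or ChREBP targets, each by its brightest probe set, with bars for the 95% confidence interval of the limma fit. Me1, Bhlhe40, Pklr and Scd1 passed on the higher side and Khk on the lower side, while Txnip and Arrdc4 had positive values that did not pass.

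Among the proteins through which the partners act on chromatin, none passed on its brightest probe set, but Pcgf6 and Tfdp2 of the Polycomb complex that holds MGA each fell on another probe set. Of 16 measured SIN3 and histone deacetylase subunits, used by MXD proteins and MNT, 0 passed by their brightest probe set (limma). Over all genes, 2.45% were called higher and 2.03% lower in the same way, so a list this short may hold no call without differing from other genes. At an unadjusted p under 0.05 there were 3, beside 17.3% of all genes. With unmoderated variances 0 passed, and with the trended, robust variance model 1 did. The median log2 fold change of the list was 0.016. The smallest p values were those of Sin3b (0.52), Brms1l (-0.51), Sap130 (0.55) and Sap30 (-0.44), given as log2 fold changes. None of the 25 further probe sets of this list passed. Of 12 subunits of the Polycomb complex, 0 passed by their brightest probe set (limma, 2 at an unadjusted p under 0.05, and 0 with unmoderated variances), with a median of -0.011, while 2 of the 14 further probe sets of these genes were called lower, beside 1.78% of all probe sets. Pcgf6, the subunit that defines that complex, stood on its brightest probe set at 6.713, 6.623 and 6.002 in dKO 1 to 3, against 6.95, 7.62 and 7.42 in control 1 to 3. Its log2 fold change was -0.88 ± 0.26 without overlap of the groups (adjusted p = 0.116). Its dimmer probe set 1432108_at stood at 3.40, 4.50 and 4.06 in dKO 1 to 3, against 6.36, 5.59 and 5.91 in control 1 to 3, and fell by 1.97 ± 0.31, 3.91-fold (limma, adjusted p = 0.0123). The groups were separate there, and overlapped on the remaining Pcgf6 probe set (-0.73, adjusted p = 0.328). Tfdp2, a dimerization partner of E2F factors, did not pass on its brightest probe set (-0.62, adjusted p = 0.342). On 1435344_at it stood at 7.96, 7.65 and 8.04 in dKO 1 to 3, against 8.68, 8.64 and 8.70 in control 1 to 3, and fell by 0.79 ± 0.18, 1.73-fold (adjusted p = 0.0478). Its other probe sets, with -0.26 and -0.015, did not pass. All probe sets of both genes had negative values, and they differed in size and in whether they passed. Calls on these further probe sets were looked at after their values were seen and were not repeated under other settings. Yaf2 (0.44) and Hdac1 (0.37), which is shared with the SIN3 list, did not pass.

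By brightest probe set, 1 gene fell in a list of 19 that held coactivators, other MYC-binding proteins and Tfap4. That gene was Tfap4, and none of the coactivators or binding proteins was called. Tfap4 was also the 1 called of 10 other E-box binding genes, since both lists hold it. Over all genes, 2.03% were called lower in the same way. None of the further probe sets of either list passed. The lists' median log2 fold changes were -0.097 and 0.033. Tfap4, an E-box factor known as a MYC target in several cell types, stood at 5.05, 4.85 and 5.12 in dKO 1 to 3, against 6.37, 6.37 and 6.54 in control 1 to 3, and fell by 1.42 ± 0.17, 2.68-fold (limma, adjusted p = 0.00378). The call was lost with unmoderated variances, and the probe set is removed by the filter on dim probe sets. The helicases Ruvbl2 (-0.56) and Ruvbl1 (-0.31), the ubiquitin ligase subunit Skp2 (-0.57), the lysosome and pigment regulators Mitf (-0.65) and Tfe3 (0.42), and Tcfl5 (0.19) did not pass.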

How the data were processed

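The authors deposited RMA values on the log2 scale (RMA is named in the submitters' processing notes). Its version was not given in the sources used here. Per the labels' protocols, RNA was amplified in 2 rounds before labelling. Of 45101 probe sets, 64 Affymetrix controls were left out. Of the rest, 34945 had 1 gene symbol, 932 several and 9160 none, and 34741 were matched by gene identifier to a RefSeq table (GRCm38.p6), which supplied current symbols and promoter sequence. No symbol of the member probe sets changed.

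Groups came from the sample titles. With group as the only term, limma 3.58.1 (R 4.3.3, two-sided) was fitted to all 45037 probe sets, with Benjamini-Hochberg adjustment over all and a threshold of 0.05. Errors are the SD over 3 arrays or the SE of the fit, and intervals are 95%. Each array is a separate pool, and precision is limited by how few arrays there are. Each gene of a list was read by its probe set with the highest mean. No set test was run. Named were all members, up to 4 genes with the smallest p from each list, Txnip and Arrdc4, and 3 genes most like each called probe set. Members and lists were chosen with earlier results of these data known. The fit was tested on simulated data. Alternatives covered 3 scalings, removal of dim or cross-matching probe sets, 1 probe set a gene, array weights, a trended variance model, a plain t-test, other thresholds, a replicate block and leaving out arrays. Figures were drawn with matplotlib 3.10.9.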

Additional observations from a re-analysis of the deposited data

How the results depend on the processing

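Of 20 alternatives, 3 called member probe sets became 1 under the plain t-test, 1 at an adjusted p under 0.01, 1 without both pools with Xist signal, and 1 to 2 without single arrays. The called probe sets of Mxi1 and Mlxip kept negative values in every alternative run. Over all probe sets, 1622 calls became 2509 with array weights, 53 under the plain t-test, 515 and 2666 at adjusted p under 0.01 and 0.1, 565 without both pools with Xist signal and 661 to 1472 without single arrays. Over genes by brightest probe set, 816 became 25 under the plain t-test, 274 and 1277 at adjusted p under 0.01 and 0.1, 306 without both pools with Xist signal and 343 to 720 without single arrays. The 5 called MondoA and ChREBP targets became 3 with the filter on dim probe sets, 0 under the plain t-test, 2 at adjusted p under 0.01, 1 without both pools with Xist signal and 2 to 4 without single arrays. Tfap4, the single call in both lists that hold it, was lost under the filter and the plain t-test. With the trended, robust variance model 1 SIN3 subunit was called. The cause of these shifts was not tested, apart from the smaller number of arrays or probe sets that some settings have by construction.

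Signs turned only among uncalled probe sets. Mxd3 1422970_at was -0.051 with array weights and between -0.14 and 0.14 without single arrays, and Mnt 1418192_at was 0.0041 with cyclic loess and between -0.16 and 0.10 without single arrays. Ranges without single arrays were -0.20 to 0.064 for Max, -0.14 to 0.0098 for Mxd4 1422574_at and -0.58 to 0.038 for Mga 1442356_at. Titles share replicate numbers, but deviations of same-numbered arrays correlated at only 0.062, -0.035 and 0.0056, so the numbers were not taken as pairs. Differently numbered arrays correlated at -0.058 to 0.061. Both pools with Xist signal, dKO 1 and control 1, share a number, so whether arrays were paired is not settled by this check. With the replicate block 2 member probe sets and 1252 probe sets in all were called, and Mlxip did not pass (adjusted p = 0.0721). Dim probe sets, such as that of Mlxipl, lie where RMA values shrink towards background, which limits what can be measured there.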
